A study of Mus musculus with 20 samples.

Results

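The levels of 10 genes of the transforming growth factor beta (TGF-beta) superfamily were followed in whole mouse kidneys: the ligand genes Tgfb1, Tgfb2, Tgfb3, Inhba, Inhbb and Bmp7, the receptor genes Tgfbr1 and Tgfbr2, the antagonist gene Grem1 and the inhibitory SMAD gene Smad7. They were taken by name, as the rows of the count table whose gene identifier belongs to one of these symbols. The names, and the gene lists used below, were chosen with earlier results of these data known. Counts and medians over these genes and lists are therefore a description. All 10 were found among 55471 rows, with 1628 counts (Grem1) to 84626 counts (Tgfbr2) summed over 20 libraries, and all passed the filter on low counts in every comparison.

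TGF-beta ligands are secreted in a latent form. Once released, they bind TGFBR2, which recruits and phosphorylates TGFBR1, and the receptor pair passes the signal to SMAD2 and SMAD3. Activins, dimers of the subunits encoded by Inhba and Inhbb, use other receptors but the same SMADs, whereas bone morphogenetic protein 7 (BMP7) signals through SMAD1, SMAD5 and SMAD9. In the kidney, TGF-beta1 is best known as a driver of fibrosis, and BMP7, made by tubule cells and podocytes, is needed for kidney development.

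The study asked how telomerase reverse transcriptase (TERT) takes part in the renewal of glomeruli, and sequenced the RNA of whole kidneys in 2 settings, with 1 library per mouse. In the transgenic experiment, i-TERTci mice (genotype actin-rtTA+;tetOp-TERTci+, 3 libraries) were set against actin-rtTA+ mice (4 libraries). All were on a mixed background, and both groups drank doxycycline at 2 mg/ml for 15 days and were sampled 8 days after its withdrawal. TERTci is a catalytically inactive TERT, switched on by doxycycline through the rtTA transactivator under a widely active CAG (actin) promoter, and mice are kept heterozygous for each transgene. In the injury experiment, on a Balb/c background, mice were injected once, intravenously, with Adriamycin (ADR, the drug doxorubicin, toxic to podocytes in this strain) at 12 mg/kg or else with saline, and kidneys were taken 18 days later. The groups were TERT KO/KO mice given ADR (3 libraries), TERT WT/WT littermates given ADR (3 libraries), TERT KO/KO mice given saline (3 libraries) and TERT WT/WT littermates given saline (4 libraries). The knockout is constitutive, and the TERT KO/KO mice were of the first generation. All 20 mice were females of 2 months, so the levels below are those of 1 sex and 1 age. In a whole kidney, fewer cells of a type and less RNA per cell cannot be told apart.

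Library totals ran from 39323498 to 48399322 counts, with 21092 to 25991 genes detected. The replicate 2 library of the group labelled TERT KO/KO ADR was unlike the other 19. Alb, the serum albumin gene of hepatocytes, had 12488842 counts in it (261234 CPM, against at most 82.9 CPM elsewhere, where CPM is the count scaled to a library of a fixed size), the podocyte gene Nphs1 had 2 counts, and 10 hepatocyte markers summed to 324723 CPM, against 124 to 439 elsewhere. It was left out of group means and of the tests, which leaves 2 TERT KO/KO ADR libraries, and results with it are given where they change a call. Tert itself had 105 and 210 counts in the 2 TERT KO/KO ADR libraries that were kept and 51 to 132 in TERT KO/KO saline libraries, against 164 to 379 and 122 to 187 counts in the TERT WT/WT libraries given ADR and saline. These are counts over the whole gene, and the deleted part is not named in the sources used here, so they do not check the genotype labels. In the transgenic experiment Tert had 1070, 1086 and 230 counts in i-TERTci libraries, against 87 to 164 counts in actin-rtTA+ libraries, all above the controls but replicate 3 far below the other two.

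Levels are given as CPM after trimmed-mean scaling of 19 libraries (TMM CPM). Differences are log2 fold changes with standard errors (SE) from edgeR's quasi-likelihood test on the raw counts, and "rose" and "fell" are used where the Benjamini-Hochberg adjusted p, over all genes tested, was under 0.05. TERT WT/WT ADR replicate 1 was nearest to the saline libraries, with 1283 Nphs1 counts against 167 and 168 in ADR replicates 2 and 3. In fibroblast and pericyte markers, i-TERTci replicate 2 was nearest to actin-rtTA+ mice. There 10 markers summed to 731 CPM, against 4126 and 2660 CPM in i-TERTci replicates 1 and 3. It was not nearest in podocyte markers, which summed to 1091 CPM in it, against 587 to 740 CPM in actin-rtTA+ libraries. Each library is 1 mouse, so the p-values set each difference against the spread between mice. That spread was estimated from all libraries of a fit and drawn towards that of other genes. It is therefore not only that of the mice compared.

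Promoter sequence was read for 7 of the 10 genes, as the 250 bases before the transcription start in RefSeq (build GRCm38.p6). The window of Tgfb2 is printed here, as the TGF-beta isoform whose values lay in opposite directions from their own controls in the 2 experiments. Printed with it are those of 4 genes that rose after ADR in TERT WT/WT animals (Tgfb1, Inhba, Inhbb and Grem1). Each is written 5′ to 3′ on the strand of the gene. Capitals mark CAGAC, a short form of the element that SMAD3 and SMAD4 bind, and TATAAA, the core of a TATA box. TGANTCA, the element of the AP-1 factors, was also searched, all on both strands, and no marked stretch overlaps another.
Tgfb1 (chr7:25686752-25687001, plus strand): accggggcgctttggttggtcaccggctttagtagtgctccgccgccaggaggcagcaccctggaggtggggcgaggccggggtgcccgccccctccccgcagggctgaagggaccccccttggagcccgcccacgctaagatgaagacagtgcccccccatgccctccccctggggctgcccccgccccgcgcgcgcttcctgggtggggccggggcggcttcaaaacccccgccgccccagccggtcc
Tgfb2 (chr1:186705990-186706239, minus strand): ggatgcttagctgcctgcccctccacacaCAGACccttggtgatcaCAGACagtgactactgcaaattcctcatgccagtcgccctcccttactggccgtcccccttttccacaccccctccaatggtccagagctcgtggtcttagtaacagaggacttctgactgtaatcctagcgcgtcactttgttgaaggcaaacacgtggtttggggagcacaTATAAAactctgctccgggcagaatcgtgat
Inhba (chr13:16011601-16011850, plus strand): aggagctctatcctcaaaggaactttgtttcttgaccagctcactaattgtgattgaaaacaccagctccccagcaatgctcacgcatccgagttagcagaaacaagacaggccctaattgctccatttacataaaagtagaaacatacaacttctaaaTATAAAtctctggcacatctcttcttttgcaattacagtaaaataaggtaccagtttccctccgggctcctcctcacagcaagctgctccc
Inhbb (chr1:119422249-119422498, minus strand): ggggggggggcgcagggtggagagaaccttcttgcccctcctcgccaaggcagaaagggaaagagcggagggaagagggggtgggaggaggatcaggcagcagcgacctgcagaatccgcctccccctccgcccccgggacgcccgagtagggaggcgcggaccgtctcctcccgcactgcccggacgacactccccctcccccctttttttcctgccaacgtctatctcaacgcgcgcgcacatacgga
Grem1 (chr2:113758649-113758898, minus strand): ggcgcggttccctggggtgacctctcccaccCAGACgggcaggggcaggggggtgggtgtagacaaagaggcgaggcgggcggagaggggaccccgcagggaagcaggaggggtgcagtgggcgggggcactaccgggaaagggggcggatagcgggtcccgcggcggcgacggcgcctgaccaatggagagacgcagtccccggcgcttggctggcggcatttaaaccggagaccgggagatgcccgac
The Tgfb2 window holds 2 CAGAC matches, starting 221 and 204 bases before the start, and a TATAAA 31 bases before it. The Inhba window holds a TATAAA 91 bases before the start, and Grem1 has 1 CAGAC at 219 bases. In the Tgfb1 and Inhbb windows none of these letters were found, and none of the 7 genes had TGANTCA. Among 32851 RefSeq promoter windows of the same length, 42.2% hold CAGAC, 12.4% TATAAA and 6.75% TGANTCA, so a CAGAC match is common. Base composition separated the 5 windows more than these motifs did. G and C made up 75.2% of the Tgfb1 window, 72.0% of that of Grem1 and 68.0% of that of Inhbb, against 53.6% for Tgfb2 and 43.2% for Inhba, with a median of 52.4% over all windows. The list of genes that rose after ADR therefore has both GC-rich and GC-poor windows.

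Tgfb1 (ENSMUSG00000002603.15, chromosome 7, 25687002 to 25705077, plus strand, in GRCm38), which encodes the isoform most studied in fibrosis, was higher in every ADR or i-TERTci kidney than in every control of its own comparison. In TERT WT/WT mice it reached 50.9, 82.2 and 81.4 TMM CPM in ADR libraries, against 38.8, 37.8, 33.2 and 32.9 TMM CPM in saline libraries. The ADR libraries all lay above the saline libraries, with replicate 1 the lowest of them. Tgfb1 rose 2.00-fold (log2 fold change 1.00 ± 0.17 SE, edgeR adjusted p = 0.0023), and this held with TERT KO/KO ADR replicate 2 in the fit (adjusted p = 0.0186). For this gene, TERT KO/KO kidneys had 54.6 and 71.8 TMM CPM after ADR, against 36.6, 42.8 and 34.9 TMM CPM in saline. The groups did not overlap, but the log2 fold change of 0.74 ± 0.20 SE had an edgeR adjusted p of 0.0505. This was on the other side of the threshold from DESeq2 (adjusted p = 0.0145). It was also on the other side from edgeR without replicate 1 (0.00281) or replicate 3 (0.0396) of TERT WT/WT ADR mice. Without TERT KO/KO ADR replicate 1, which leaves 1 library in that group, the log2 fold change was 0.91. Tgfb1 was also called in TERT KO/KO mice by edgeR with no filter on low counts (adjusted p = 0.0117) and with the 2 compared groups alone (0.0293). In the transgenic experiment Tgfb1 had 143, 52.4 and 94.9 TMM CPM in i-TERTci libraries, against 33.4, 48.8, 41.5 and 43.4 TMM CPM in actin-rtTA+ libraries. All i-TERTci libraries were above all actin-rtTA+ libraries, but replicate 2 only just. The log2 fold change was 1.23 ± 0.30 SE with an edgeR adjusted p of 0.0805.

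Tgfb2 (ENSMUSG00000039239.14, chromosome 1, 186622792 to 186705989, minus strand) encodes the isoform that is needed for kidney development in the mouse embryo. In i-TERTci libraries it had 13.5, 12.1 and 13.4 TMM CPM, against 4.93, 5.18, 4.59 and 6.57 TMM CPM in actin-rtTA+ libraries. Here the 3 i-TERTci libraries were close together, replicate 2 included, and all stood well above the controls. The log2 fold change was 1.30 ± 0.16 SE (edgeR adjusted p = 0.0758). After ADR the values lay the other way from their controls, which were higher than those of the transgenic experiment. The control mean was 5.32 TMM CPM in actin-rtTA+ mice, against 21.2 TMM CPM in TERT WT/WT and 25.4 TMM CPM in TERT KO/KO saline mice. Every i-TERTci library still lay below every ADR library. TERT KO/KO kidneys had 14.6 and 19.1 TMM CPM of Tgfb2 after ADR, against 28.8, 24.0 and 23.5 TMM CPM in saline, without overlap (log2 fold change -0.59 ± 0.24 SE, edgeR adjusted p = 0.152). In TERT WT/WT mice it had 14.7, 16.5 and 18.7 TMM CPM after ADR, against 23.0, 19.9, 27.6 and 14.2 TMM CPM in saline, where replicate 4 was below every ADR library (log2 fold change -0.35 ± 0.20 SE, edgeR adjusted p = 0.196). None of these 3 adjusted p-values was under 0.05, and with no filter on low counts the i-TERTci one was (edgeR adjusted p = 0.0356). A gene annotated as antisense to Tgfb2 (Gm29491, 52 counts in all 20 libraries) shares 124 exonic bases with it, and the strand setting of the counting is not given in the sources used here.

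Tgfb3 (ENSMUSG00000021253.7, chromosome 12, 86056745 to 86079041, minus strand), the gene of the third isoform, had 10.5, 6.70 and 8.50 TMM CPM in i-TERTci libraries, against 3.04, 3.77, 2.63 and 3.78 TMM CPM in actin-rtTA+ libraries. The groups did not overlap (log2 fold change 1.39 ± 0.22 SE, edgeR adjusted p = 0.0758). Among TERT WT/WT mice, it had 3.06, 5.51 and 7.03 TMM CPM after ADR, against 4.38, 2.86, 4.04 and 3.94 TMM CPM in saline. ADR replicate 1 sat among the saline libraries, and the other 2 ADR libraries were above them. Across all libraries the log2 fold change was 0.45 ± 0.25 SE (edgeR adjusted p = 0.185), and without ADR replicate 1 it was 0.72 with an edgeR adjusted p of 0.00797. In TERT KO/KO mice the values overlapped, with 4.27 and 5.03 TMM CPM after ADR, against 4.42 to 5.07 TMM CPM in saline (log2 fold change -0.04 ± 0.29 SE, edgeR adjusted p = 0.946).

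**Figure D1:**
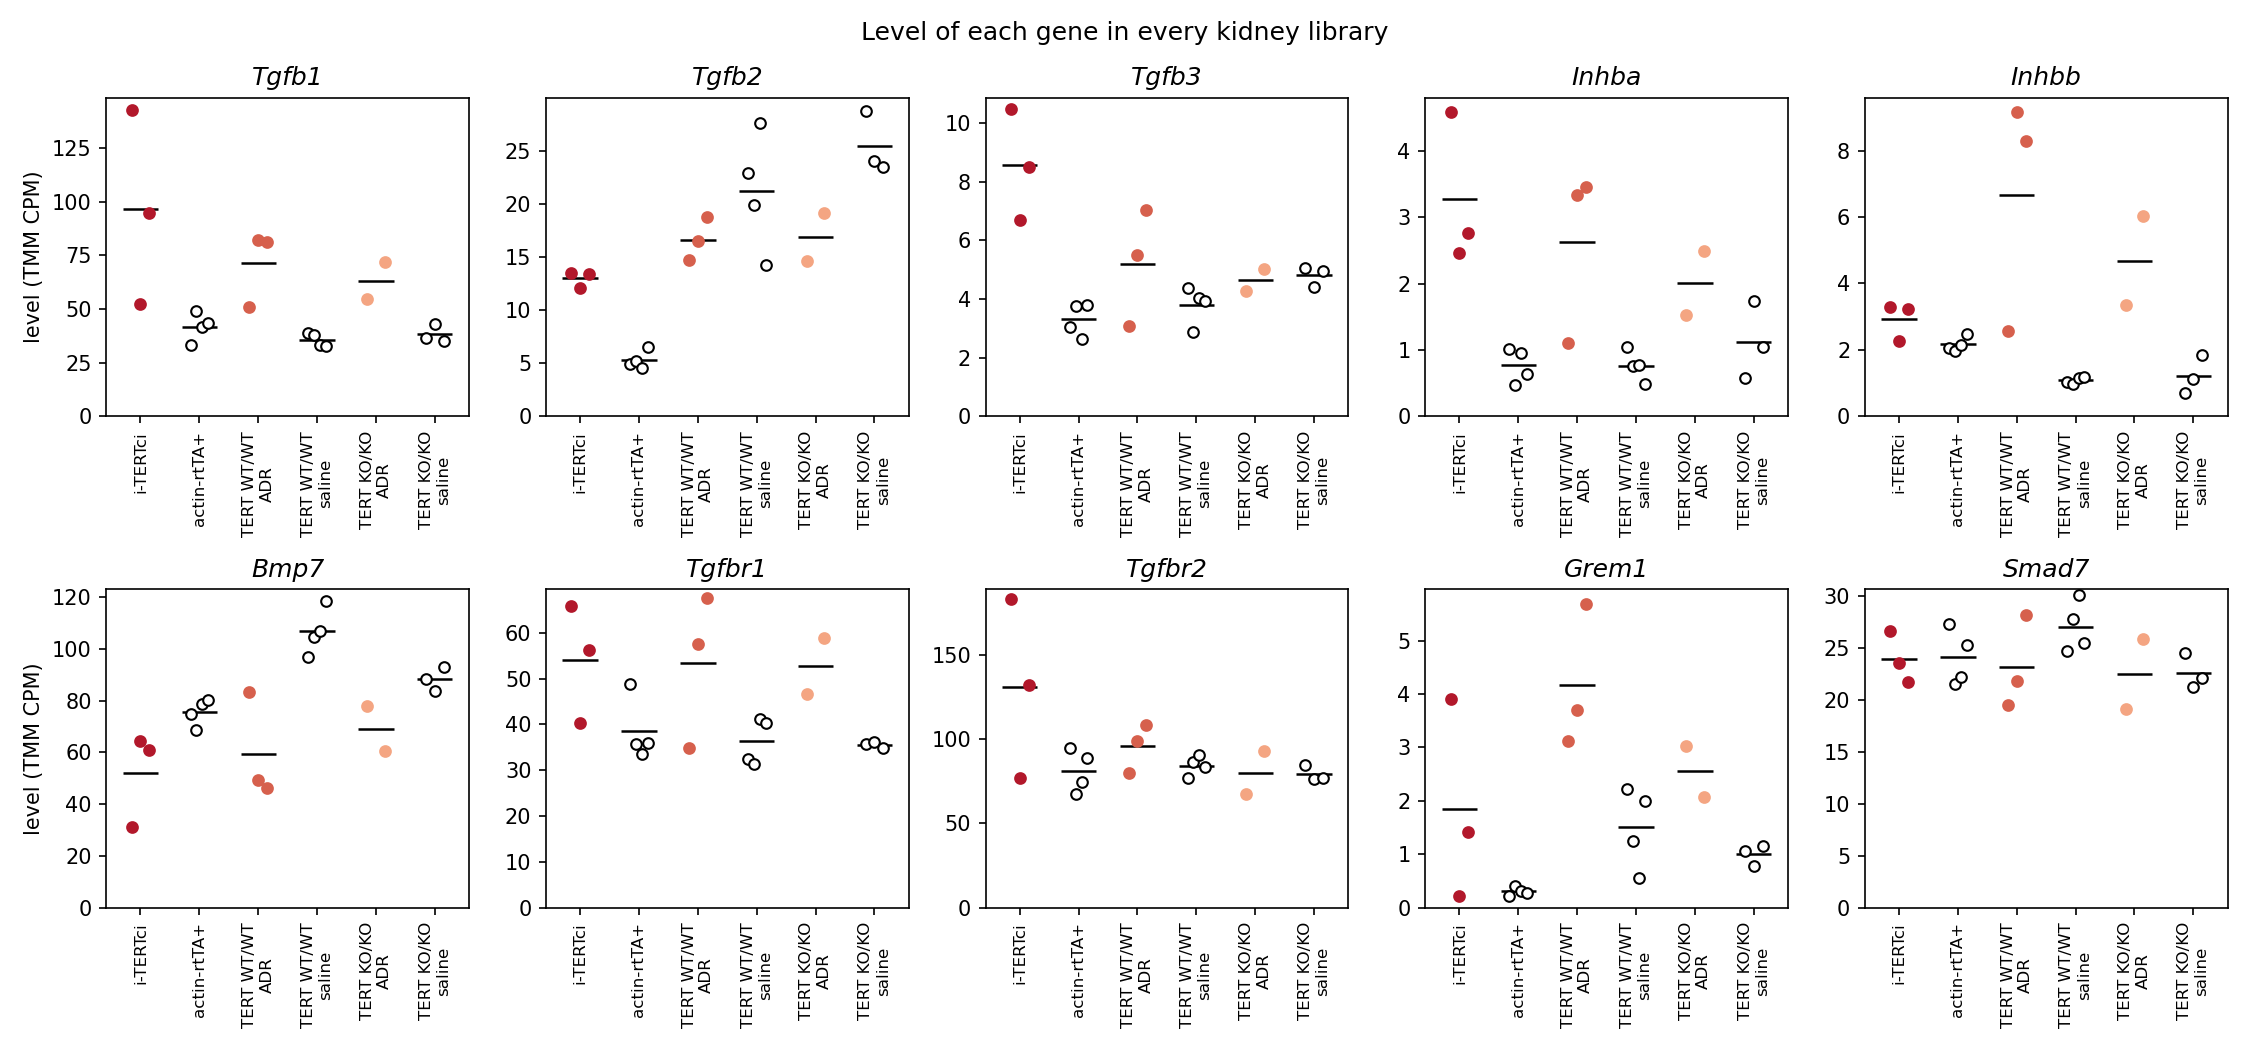
Level of each of the 10 genes in TMM CPM (vertical axes, from 0), 1 point per library and a line at the group mean, with filled points for i-TERTci and ADR groups and open points for their controls. Tgfb1 lies above its controls in all 3 pairs of groups, Tgfb2 lies above its controls in i-TERTci mice and mostly below them after ADR, and Bmp7 has its highest values, 96.9 to 119 TMM CPM, in TERT WT/WT saline libraries.

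Set per kilobase of exonic length, so that genes can be compared, Tgfb1 was the main TGF-beta isoform in all groups. Its share of the summed level per kb of the 3 isoforms was 76.1% ± 2.09 in TERT WT/WT ADR mice (SD, n = 3), against 60.0% ± 5.42 in TERT WT/WT saline mice (SD, n = 4). In TERT KO/KO mice it was 74.5% ± 0.50 after ADR (SD, n = 2), against 56.5% ± 4.06 in saline (SD, n = 3). The ADR and saline libraries did not overlap in this share in either genotype. The Tgfb2 share had the reverse order, 15.9% ± 2.61 after ADR against 30.5% ± 5.70 in saline in TERT WT/WT mice, and 17.3% ± 0.09 against 32.8% ± 3.23 in TERT KO/KO mice. In the transgenic experiment the shares overlapped between the groups, with Tgfb2 at 10.4% ± 3.78 in i-TERTci mice (n = 3), against 9.09% ± 1.42 in actin-rtTA+ mice (n = 4). These shares are given as a description and were not tested.

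**Figure D2:**
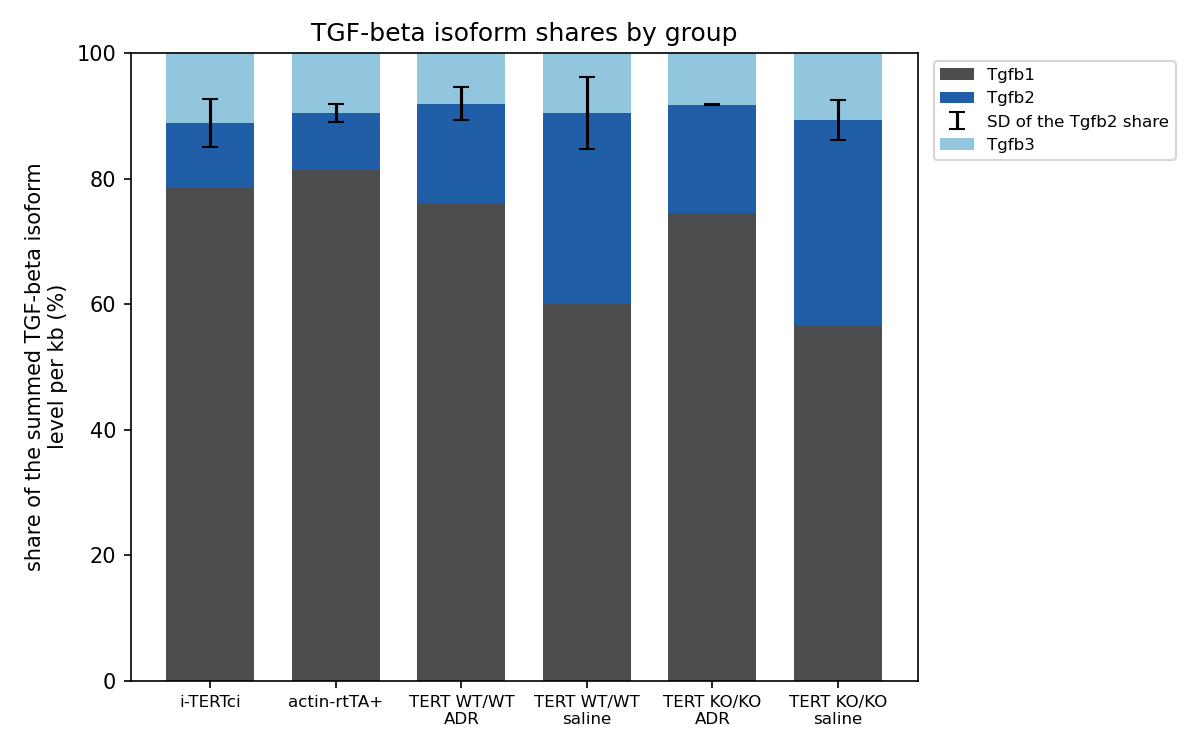
Mean share (%) of Tgfb1, Tgfb2 and Tgfb3 in their summed level per kb of exonic length, by group, stacked to 100%, with bars for the SD of the Tgfb2 share over the libraries of the group. Tgfb2 takes 15.9% and 17.3% in the 2 ADR groups, against 30.5% and 32.8% in their saline groups. A higher Tgfb1 level alone lowers the Tgfb2 share.

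Inhba (ENSMUSG00000041324.14, chromosome 13, 16011851 to 16031621, plus strand), the subunit gene of activin A, was a low-level gene that rose after ADR in TERT WT/WT mice. It had 1.10, 3.34 and 3.46 TMM CPM in ADR libraries (46, 148 and 206 counts), against 1.04, 0.758, 0.768 and 0.493 TMM CPM in saline libraries (46, 36, 35 and 19 counts). Every ADR library was above every saline library, but replicate 1 exceeded the highest of them only slightly. The rise was 3.43-fold (log2 fold change 1.78 ± 0.44 SE, edgeR adjusted p = 0.0122), and the call was lost without ADR replicate 2 (adjusted p = 0.0623) or ADR replicate 3 (0.0528). In i-TERTci libraries Inhba had 4.59, 2.46 and 2.76 TMM CPM, against 1.02, 0.464, 0.961 and 0.634 TMM CPM in actin-rtTA+ libraries. The lowest i-TERTci library was well above the highest actin-rtTA+ library, and the log2 fold change was 2.10 ± 0.36 SE (edgeR adjusted p = 0.0758). In TERT KO/KO mice the groups overlapped, with 1.53 and 2.50 TMM CPM after ADR, against 0.576, 1.74 and 1.05 TMM CPM in saline (log2 fold change 0.87 ± 0.51 SE, edgeR adjusted p = 0.318). The left-out TERT KO/KO ADR replicate 2 had 1172 Inhba counts, more than any other library, and with it in the fit Inhba was no longer called in TERT WT/WT mice either (adjusted p = 0.344).

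Inhbb (ENSMUSG00000037035.5, chromosome 1, 119415465 to 119422248, minus strand), the subunit gene of activin B, rose after ADR in both genotypes. The TERT WT/WT kidneys had 2.56, 9.16 and 8.31 TMM CPM in ADR libraries, against 1.04, 0.969, 1.16 and 1.19 TMM CPM in saline libraries. All ADR libraries were above all saline libraries, with replicates 2 and 3 far above replicate 1. The rise of 6.11-fold (log2 fold change 2.61 ± 0.41 SE, edgeR adjusted p = 0.0019) was the largest called change among the 10 genes, and it was called with TERT KO/KO ADR replicate 2 in the fit as well (adjusted p = 0.0123). The TERT KO/KO libraries had 3.36 and 6.02 TMM CPM of Inhbb after ADR, against 0.714, 1.11 and 1.85 TMM CPM in saline. The groups did not overlap, and the rise was 3.87-fold (log2 fold change 1.95 ± 0.49 SE, edgeR adjusted p = 0.0392). This call was less firm: the adjusted p was 0.0536 with TERT KO/KO ADR replicate 2 and 0.0747 with no filter on low counts. It lay between 0.0578 and 0.121 when any of the TERT KO/KO or TERT WT/WT saline libraries was left out. Without TERT KO/KO ADR replicate 3, which leaves 1 library in that group, the log2 fold change was 1.47. In the transgenic experiment Inhbb had 3.30, 2.28 and 3.25 TMM CPM in i-TERTci libraries, against 2.04, 1.96, 2.16 and 2.49 TMM CPM in actin-rtTA+ libraries. There i-TERTci replicate 2 lay among the controls (log2 fold change 0.46 ± 0.23 SE, edgeR adjusted p = 0.277).

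Bmp7 (ENSMUSG00000008999.7, chromosome 2, 172868012 to 172940321, minus strand) was called lower with ADR in wild-type mice. In TERT WT/WT mice it had 83.3, 49.2 and 46.1 TMM CPM in ADR libraries, against 96.9, 105, 107 and 119 TMM CPM in saline libraries. All ADR libraries were below all saline libraries, and replicate 1 was again nearest to them. Bmp7 dropped to 0.554 of the saline level (log2 fold change -0.85 ± 0.18 SE, edgeR adjusted p = 0.0071). The call was lost without ADR replicate 2 (adjusted p = 0.0504) and with TERT KO/KO ADR replicate 2 in the fit (0.469), a library with 85 Bmp7 counts. For this gene, TERT KO/KO kidneys had 78.0 and 60.4 TMM CPM after ADR, against 88.4, 83.6 and 93.0 TMM CPM in saline, without overlap (log2 fold change -0.35 ± 0.22 SE, edgeR adjusted p = 0.344). In i-TERTci libraries it had 31.3, 64.6 and 60.9 TMM CPM, against 74.8, 68.8, 78.6 and 80.3 TMM CPM in actin-rtTA+ libraries. These groups did not overlap either, with replicate 1 far below the rest (log2 fold change -0.52 ± 0.23 SE, edgeR adjusted p = 0.229). Per kb of exonic length, Bmp7 was the most abundant of the 10 genes in saline kidneys, at 26.6 ± 2.26 CPM per kb in TERT WT/WT mice (SD, n = 4), whereas in i-TERTci mice Tgfb1 was first at 19.2 ± 8.97 CPM per kb (SD, n = 3).

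Tgfbr1 (ENSMUSG00000007613.15, chromosome 4, 47353222 to 47414931, plus strand), the signalling receptor, had 34.9, 57.6 and 67.7 TMM CPM in TERT WT/WT ADR libraries, against 32.4, 31.3, 41.2 and 40.3 TMM CPM in TERT WT/WT saline libraries. ADR replicate 1 lay within the saline range and the other 2 above it. The rise of 1.47-fold only just passed the test (log2 fold change 0.55 ± 0.19 SE, edgeR adjusted p = 0.0484). It was lost with the 2 compared groups alone (adjusted p = 0.0842), with TERT KO/KO ADR replicate 2 (0.142), and without ADR replicate 2 or 3 or any 1 of the 7 saline libraries (0.0596 to 0.222). TERT KO/KO kidneys had 46.7 and 59.0 TMM CPM of Tgfbr1 after ADR, against 35.6, 36.2 and 34.8 TMM CPM in saline, without overlap (log2 fold change 0.58 ± 0.23 SE, edgeR adjusted p = 0.145). In i-TERTci libraries it had 65.9, 40.4 and 56.2 TMM CPM, against 48.8, 35.8, 33.6 and 36.0 TMM CPM in actin-rtTA+ libraries, where the groups overlapped (log2 fold change 0.50 ± 0.20 SE, edgeR adjusted p = 0.185).

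Tgfbr2 (ENSMUSG00000032440.13, chromosome 9, 116084293 to 116175360, minus strand), the gene of the ligand-binding receptor, had 184, 77.3 and 132 TMM CPM in i-TERTci libraries, against 94.8, 67.4, 74.7 and 89.0 TMM CPM in actin-rtTA+ libraries. Replicates 1 and 3 were above every control and replicate 2 was among them (log2 fold change 0.70 ± 0.27 SE, edgeR adjusted p = 0.179). After ADR it had 80.3, 98.8 and 109 TMM CPM in TERT WT/WT mice, against 77.0 to 90.7 TMM CPM in saline (log2 fold change 0.18 ± 0.14 SE, edgeR adjusted p = 0.341). The TERT KO/KO libraries had 67.6 and 92.9 TMM CPM after ADR, against 76.7 to 84.8 TMM CPM in saline (log2 fold change 0.02 ± 0.16 SE, edgeR adjusted p = 0.951). The ADR and saline libraries overlapped in both genotypes.

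Grem1 (ENSMUSG00000074934.3, chromosome 2, 113746164 to 113758646, minus strand) encodes gremlin 1, a secreted protein that binds BMPs and keeps them from their receptors. It was the gene with the fewest counts of the 10. Among TERT WT/WT mice, it had 3.11, 3.70 and 5.69 TMM CPM in ADR libraries (130, 164 and 339 counts), against 2.21, 1.24, 0.549 and 2.00 TMM CPM in saline libraries (98, 59, 25 and 77 counts). The ADR libraries were all above the saline libraries, replicate 1 among them. Grem1 rose 2.78-fold (log2 fold change 1.48 ± 0.38 SE, edgeR adjusted p = 0.0157), a call lost without ADR replicate 3 (adjusted p = 0.0715) and with TERT KO/KO ADR replicate 2 in the fit (0.302), which has no Grem1 count. For this gene, TERT KO/KO kidneys had 3.03 and 2.08 TMM CPM after ADR, against 1.06, 0.769 and 1.16 TMM CPM in saline. These groups did not overlap (log2 fold change 1.36 ± 0.47 SE, edgeR adjusted p = 0.105, DESeq2 adjusted p = 0.0429). In i-TERTci libraries the range was wide, with 3.91, 0.209 and 1.41 TMM CPM (233, 8 and 75 counts), against 0.217, 0.413, 0.305 and 0.275 TMM CPM in actin-rtTA+ libraries (10, 16, 13 and 13 counts). Replicate 2 was below every control and the other 2 were above, and the log2 fold change was 2.63 ± 0.78 SE (edgeR adjusted p = 0.107).

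Smad7 (ENSMUSG00000025880.11, chromosome 18, 75367529 to 75395935, plus strand), which encodes the SMAD that blocks the activated receptor and is itself a target of TGF-beta signalling, was the flattest of the 10. Its group means lay between 22.5 and 27.0 TMM CPM in all 6 groups. It had 26.6, 23.5 and 21.7 TMM CPM in i-TERTci libraries, against 21.5 to 27.3 TMM CPM in actin-rtTA+ libraries. The TERT WT/WT kidneys had 19.5, 21.8 and 28.2 TMM CPM after ADR, against 24.7 to 30.1 TMM CPM in saline. Replicates 1 and 2 lay below the saline libraries and replicate 3 among them (log2 fold change -0.23 ± 0.15 SE, edgeR adjusted p = 0.269). TERT KO/KO kidneys had 19.1 and 25.8 TMM CPM after ADR, against 21.2 to 24.5 TMM CPM in saline. Its fold change was within 1 SE of 0 on the log2 scale in i-TERTci mice and in TERT KO/KO mice, and its sign in i-TERTci mice turned under other scalings.

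**Figure D3:**
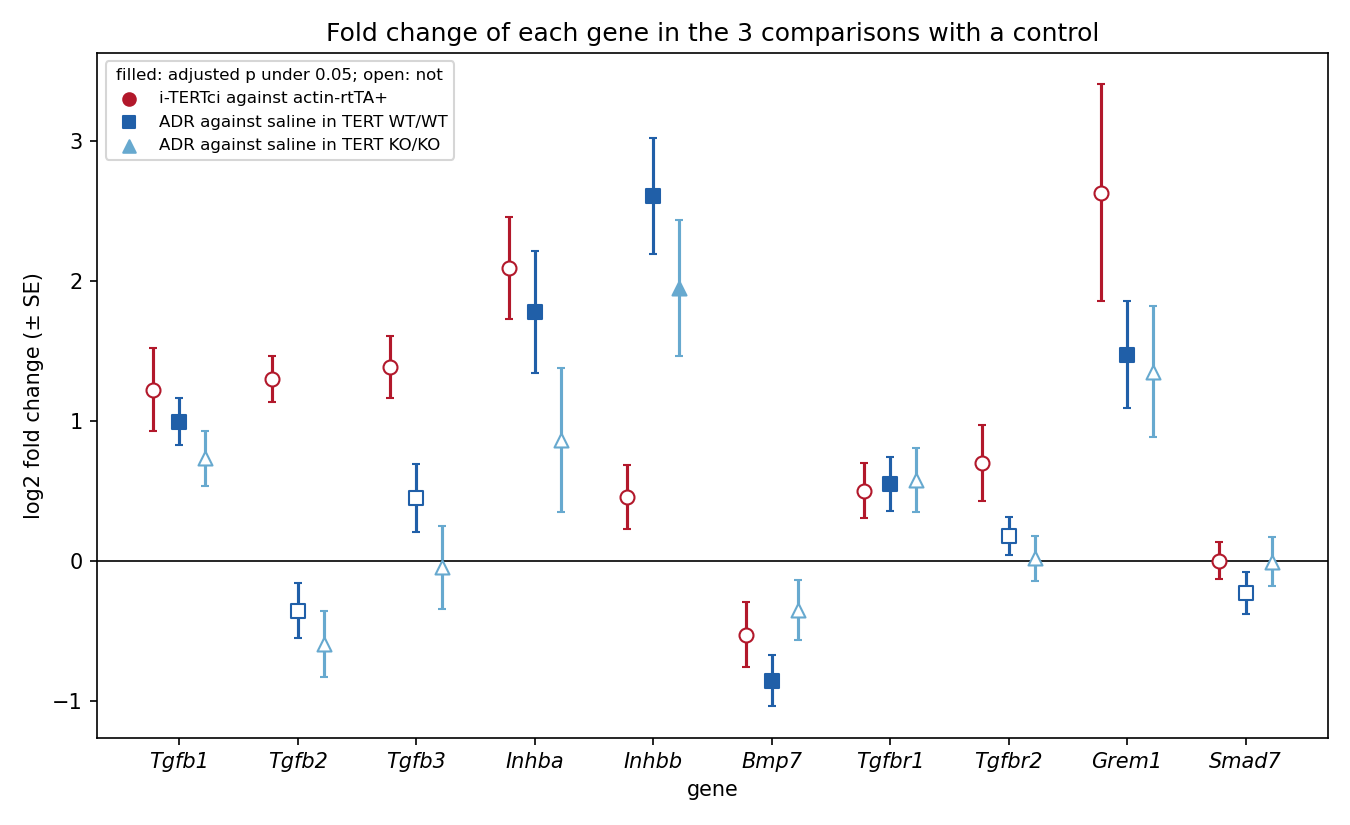
Log2 fold change of the 10 genes (vertical axis, ± SE, edgeR) in i-TERTci against actin-rtTA+ mice and after ADR against saline in each genotype, with filled symbols where the adjusted p was under 0.05. Inhbb is filled in both genotypes after ADR, Bmp7 is the 1 filled symbol below 0, and no i-TERTci symbol is filled.

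Counted together, 5 of the 10 genes rose with ADR in TERT WT/WT mice (Tgfb1, Inhba, Inhbb, Tgfbr1 and Grem1) and 1 fell (Bmp7), where 15.2% of all 19023 genes tested rose and 12.0% fell. At an unadjusted p under 0.05 there were 6 of the 10, and 40.9% of all genes. The median log2 fold change of the 10 was 0.50, against 0.01 over all genes tested. In 4 genes every ADR library was above every saline library (17.7% of all genes) and in 1 every one was below (15.8%). With TERT KO/KO ADR replicate 2 in the fit, 2 genes rose (Tgfb1 and Inhbb) and 0 fell, where 4.10% of all genes rose. In TERT KO/KO mice 1 of the 10 rose (Inhbb) and 0 fell by edgeR, where 3.83% of all genes rose and 1.43% fell, and 5 of the 10 had an unadjusted p under 0.05, as did 24.1% of all genes. Every library was above the controls in 4 of the 10 (21.2% of all genes) and below them in 2 (21.1%). By DESeq2, which uses the same 12 libraries, 3 rose (Tgfb1, Inhbb and Grem1), where 7.05% of all genes did. With TERT KO/KO ADR replicate 2 included, 0 of the 10 were called, where 1.32% of all genes rose.

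In the i-TERTci comparison, 0 of the 10 genes passed the edgeR threshold in the fit of its 7 libraries, where 1 of 17745 genes (0.00564%) did, although 7 of the 10 and 3972 of all genes (22.4%) had an unadjusted p under 0.05. Other fits gave more calls. DESeq2 on the same libraries called 5 of the 10 higher (Tgfb1, Tgfb2, Tgfb3, Inhba and Grem1, adjusted p from 5.31e-09 to 0.0124), where it called 8.52% of all genes higher. With all 19 libraries in 1 edgeR fit, which assumes the same spread in both experiments, 6 were higher (the same 5 and Tgfbr2), where 9.07% of all genes were. Leaving out i-TERTci replicate 2, the library nearest to the controls in fibroblast and pericyte markers, gave 7 genes called higher by edgeR (the same 6 and Tgfbr1). There 15.1% of all genes were called higher, and leaving out any other library gave 0 of the 10. Every i-TERTci library was above every control in 4 of the 10 genes (Tgfb1, Tgfb2, Tgfb3 and Inhba), against 8.76% of all genes, and below in 1 (Bmp7), against 8.53%. The median log2 fold change of the 10 was 0.96, against 0.02 over all genes tested.

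The TERT genotype made no difference that could be called in any of the 10 genes. Between the genotypes in saline, 0 of the 10 and 0.00526% of all genes were called by edgeR. After ADR, 0 of the 10 and 0.0736% of all genes were called. The difference between the ADR effects in the 2 genotypes was tested directly as an interaction, and 0 of the 10 and 0% of all genes were called. In these 3 comparisons 0 of the 10 had an unadjusted p under 0.05, where 8.79%, 7.66% and 12.0% of all genes did, and DESeq2 also called 0. The ADR effect on Bmp7 was smaller in size in TERT KO/KO mice by 0.51 ± 0.28 SE on the log2 scale (edgeR adjusted p = 0.466), and it was 0.82 with an adjusted p of 0.0401 without TERT WT/WT ADR replicate 1. Part of this difference lay between the saline groups. Against TERT WT/WT mice, Bmp7 in TERT KO/KO mice was at -0.28 ± 0.18 SE in saline and 0.23 ± 0.21 SE after ADR. Its saline libraries did not overlap between the genotypes, with 83.6 to 93.0 TMM CPM in TERT KO/KO mice, against 96.9 to 119 TMM CPM in TERT WT/WT mice. For Inhba the interaction was -0.91 ± 0.68 SE (edgeR adjusted p = 0.576), and for Inhbb it was -0.66 ± 0.64 SE (edgeR adjusted p = 0.678).

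The i-TERTci effect was also set against that of ADR in TERT WT/WT mice, each taken within its own experiment, because strain, treatment and sampling time differ between them. Of the 10 genes, 0 were called by edgeR, where 0.00505% of all genes were, and 3 had an unadjusted p under 0.05 (Tgfb2, Tgfb3 and Inhbb), as did 7.16% of all genes. DESeq2 called 2 of the 10 (Tgfb2 and Inhbb), where it called 0.303% of all genes. For Tgfb2 the i-TERTci effect exceeded the ADR effect by 1.64 ± 0.26 SE on the log2 scale (edgeR adjusted p = 0.0839, DESeq2 adjusted p = 4.6e-05). By edgeR it was called without i-TERTci replicate 2 (adjusted p = 0.017), ADR replicate 1 of the TERT WT/WT mice (0.0364) or TERT WT/WT saline replicate 4 (0.00997). For Inhbb the i-TERTci effect was below the ADR effect by 2.17 on the log2 scale (difference -2.17 ± 0.52 SE, edgeR adjusted p = 0.276, DESeq2 adjusted p = 0.0173). Tgfb1 had a difference of 0.21 ± 0.35 SE and Inhba of 0.30 ± 0.61 SE, neither beyond its error.

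Markers of other cells moved with these genes. Among TERT WT/WT mice, 7 of 10 fibroblast and pericyte markers were called higher with ADR and 1 lower, and their summed level ran from 747 to 1828 CPM in ADR libraries, against 401 to 489 CPM in saline libraries. Of 10 macrophage and monocyte markers 9 rose, with sums of 323 to 814 CPM after ADR, against 163 to 218 CPM in saline. Podocyte markers fell in 6 of 8 (192 to 534 CPM after ADR, against 640 to 699 CPM in saline) and proximal tubule markers in 4 of 8 (3692 to 10231 CPM after ADR, against 11917 to 14384 CPM in saline). Endothelial markers fell in 4 of 8, those of the thick ascending limb and distal convoluted tubule in 3 of 8, and collecting duct markers in 2 of 8. In i-TERTci libraries the fibroblast and pericyte sum ran from 731 to 4126 CPM, against 431 to 650 CPM in actin-rtTA+ libraries, and the macrophage and monocyte sum from 194 to 1855 CPM, against 144 to 202 CPM. Their proximal tubule sum ran from 3655 to 12140.5 CPM, all below the 12559 to 16227 CPM of actin-rtTA+ libraries. Their podocyte sum ran from 335 to 1091 CPM and overlapped the 587 to 740 CPM of actin-rtTA+ libraries. In TERT KO/KO mice the fibroblast and pericyte sum was 1021 and 1836 CPM after ADR, against 402 to 479 CPM in saline, and 5 of its 10 markers rose, as did 3 of the 10 macrophage and monocyte markers. Their proximal tubule sum was 7678 and 6445 CPM after ADR, against 9939 to 12977 CPM in saline, without overlap, with 0 of 8 markers called by edgeR. Their podocyte sum was 511 and 373 CPM after ADR, against 538 to 633 CPM in saline, and 2 of 8 podocyte markers fell. No fibroblast, macrophage, podocyte or tubule marker was at 0 in any of the 19 libraries. The library with the lowest fibroblast sum in each injured or TERTci group also had the lowest Tgfb1 of that group. That library had the lowest macrophage sum and the highest podocyte and proximal tubule sums of its group as well. This order is therefore not particular to the fibroblast markers. Whether cell numbers account for the levels of Tgfb1, Inhbb or Bmp7 was not tested.

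**Figure D4:**
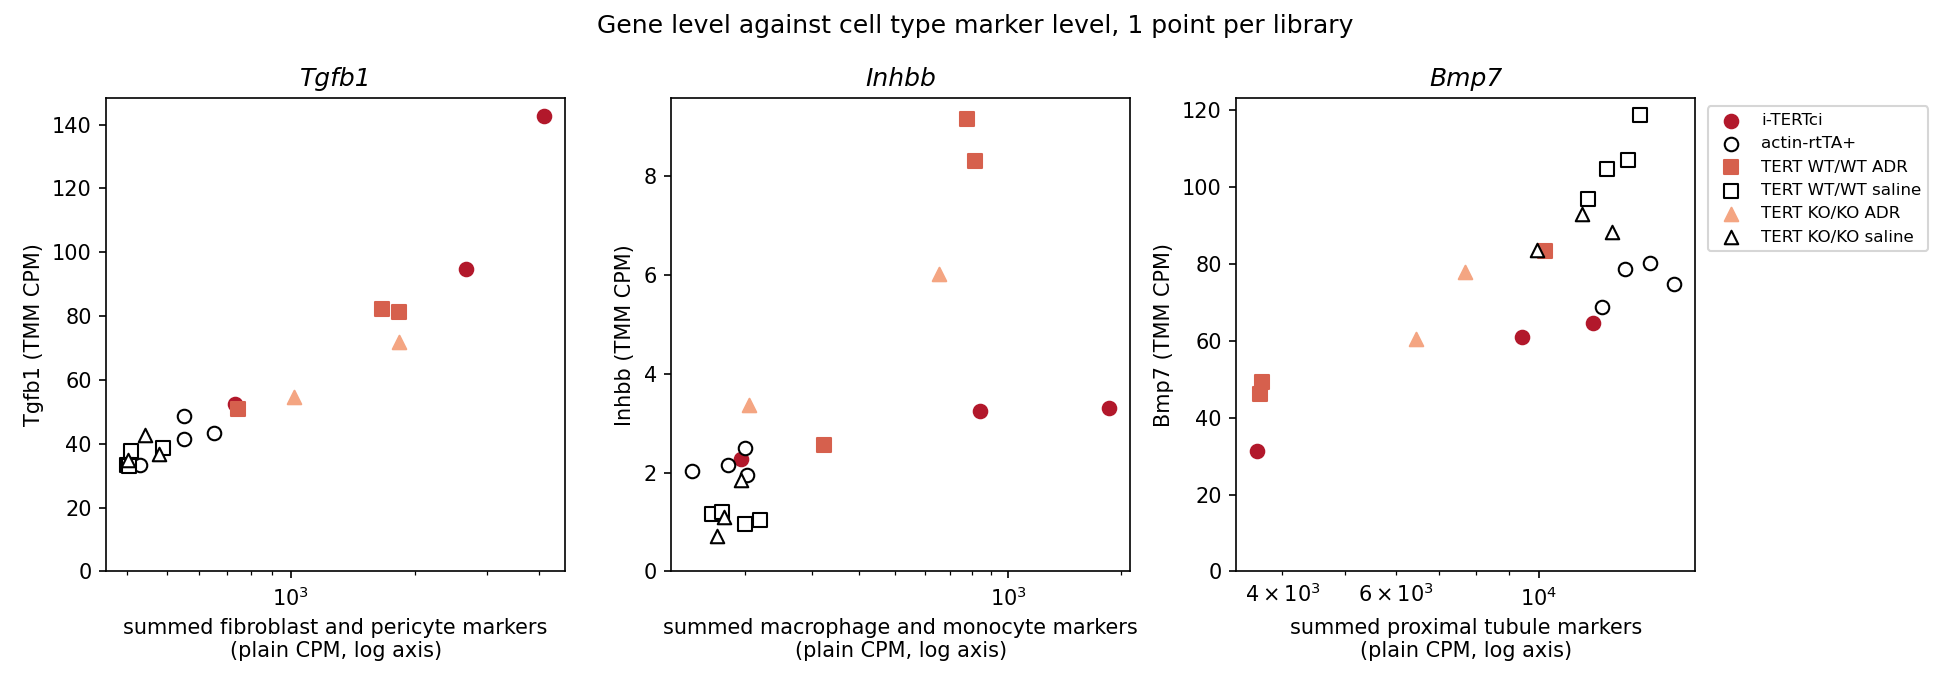
TMM CPM of Tgfb1, Inhbb and Bmp7 (vertical axes) against the summed CPM of fibroblast and pericyte, macrophage and monocyte, and proximal tubule markers (horizontal log axes), 1 point per library of the 19. Tgfb1 is highest, at 143 TMM CPM, in the i-TERTci library with the largest fibroblast sum, whereas Inhbb stays at 3.30 TMM CPM or less in i-TERTci libraries whose macrophage sums reach 1855 CPM.

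A further 71 genes of the pathway were read by role, and 67 passed the filter on low counts. By edgeR, 16 of the 67 rose and 8 fell with ADR in TERT WT/WT mice, where 15.2% of all genes rose and 12.0% fell. With TERT KO/KO ADR replicate 2 in the fit, 8 rose and 1 fell, where 4.10% of all genes rose and 0.728% fell. Of the 8 TGF-beta target genes, 5 rose and 0 fell, and their median log2 fold change was 2.05, against 0.01 over all genes tested. Among them were Col1a1, a fibrillar collagen gene (3.30 ± 0.37 SE), Cdkn1a, a cell cycle inhibitor gene that p53 also controls (3.21 ± 0.38 SE), Junb, an AP-1 factor gene (2.07 ± 0.26 SE), and Tgfbi, a secreted matrix protein gene (2.03 ± 0.23 SE). Col1a1 is also in the fibroblast list above. Of the 9 genes of the latent complex, 2 rose and 3 fell: Ltbp2 rose by 4.11 ± 0.53 SE on the log2 scale, Lrrc32, which tethers latent TGF-beta to the cell surface, by 0.51 ± 0.14 SE, and Ltbp4 (-0.64 ± 0.11 SE), Ltbp1 (-0.53 ± 0.17 SE) and the integrin gene Itgb8 (-0.81 ± 0.23 SE) fell. Of 13 extracellular antagonists, 4 rose (Nbl1 1.10 ± 0.22 SE, Chrd 0.82 ± 0.17 SE, the activin-binding Fst 0.76 ± 0.19 SE and Fstl1 0.68 ± 0.13 SE) and Bambi, a decoy receptor gene, fell (-0.76 ± 0.24 SE).

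Among 10 other ligands tested, Gdf15, a stress-response cytokine gene (2.82 ± 0.41 SE), Inha (1.47 ± 0.42 SE) and Gdf11 (0.63 ± 0.21 SE) rose, and Gdf10 fell (-0.85 ± 0.18 SE). In the SMAD regulators the ubiquitin ligase genes Smurf1 (0.55 ± 0.17 SE) and Smurf2 (-0.54 ± 0.14 SE) moved in opposite directions, and the corepressor gene Tgif1 rose (1.58 ± 0.26 SE). Of the 4 BMP target genes Id1 to Id4, only Id4 was called, and it fell (-0.56 ± 0.13 SE). Eng, an endothelial co-receptor gene, fell (-0.50 ± 0.16 SE), the 1 call among 10 other receptors tested. Apart from the TGF-beta targets, the roles with more than 1 call had calls in both directions. Some of the names in the last 2 paragraphs go beyond the 4 of smallest p in each direction and were taken because their role had 5 or fewer calls, after their values were seen.

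By the same test, 11 of the 67 rose in TERT KO/KO mice and 2 fell, where 3.83% of all genes rose and 1.43% fell. With replicate 2 of TERT KO/KO ADR in the fit, 3 rose and 0 fell, where 1.32% of all genes rose and 0.275% fell. The 2 that fell were Gdf10 (-1.13 ± 0.22 SE) and Ltbp4 (-0.62 ± 0.13 SE), both of which also fell in the wild type. Of the 8 TGF-beta targets 6 rose, among them Cdkn1a (3.83 ± 0.46 SE), Col1a1 (2.64 ± 0.43 SE) and Tgfbi (2.24 ± 0.27 SE). In the i-TERTci comparison 0 of the 67 were called by the edgeR fit of 7 libraries, 22 had an unadjusted p under 0.05 (22.4% of all genes), and DESeq2 called 14 higher and 1 lower, where it called 8.52% of all genes higher and 2.38% lower. The TGF-beta targets again had the highest median of the roles, 1.82. No gene of the 67 was called by edgeR between the genotypes or in the interaction, where 5 to 7 had an unadjusted p under 0.05 (7.66% to 12.0% of all genes) and DESeq2 called 0.

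**Figure D5:**
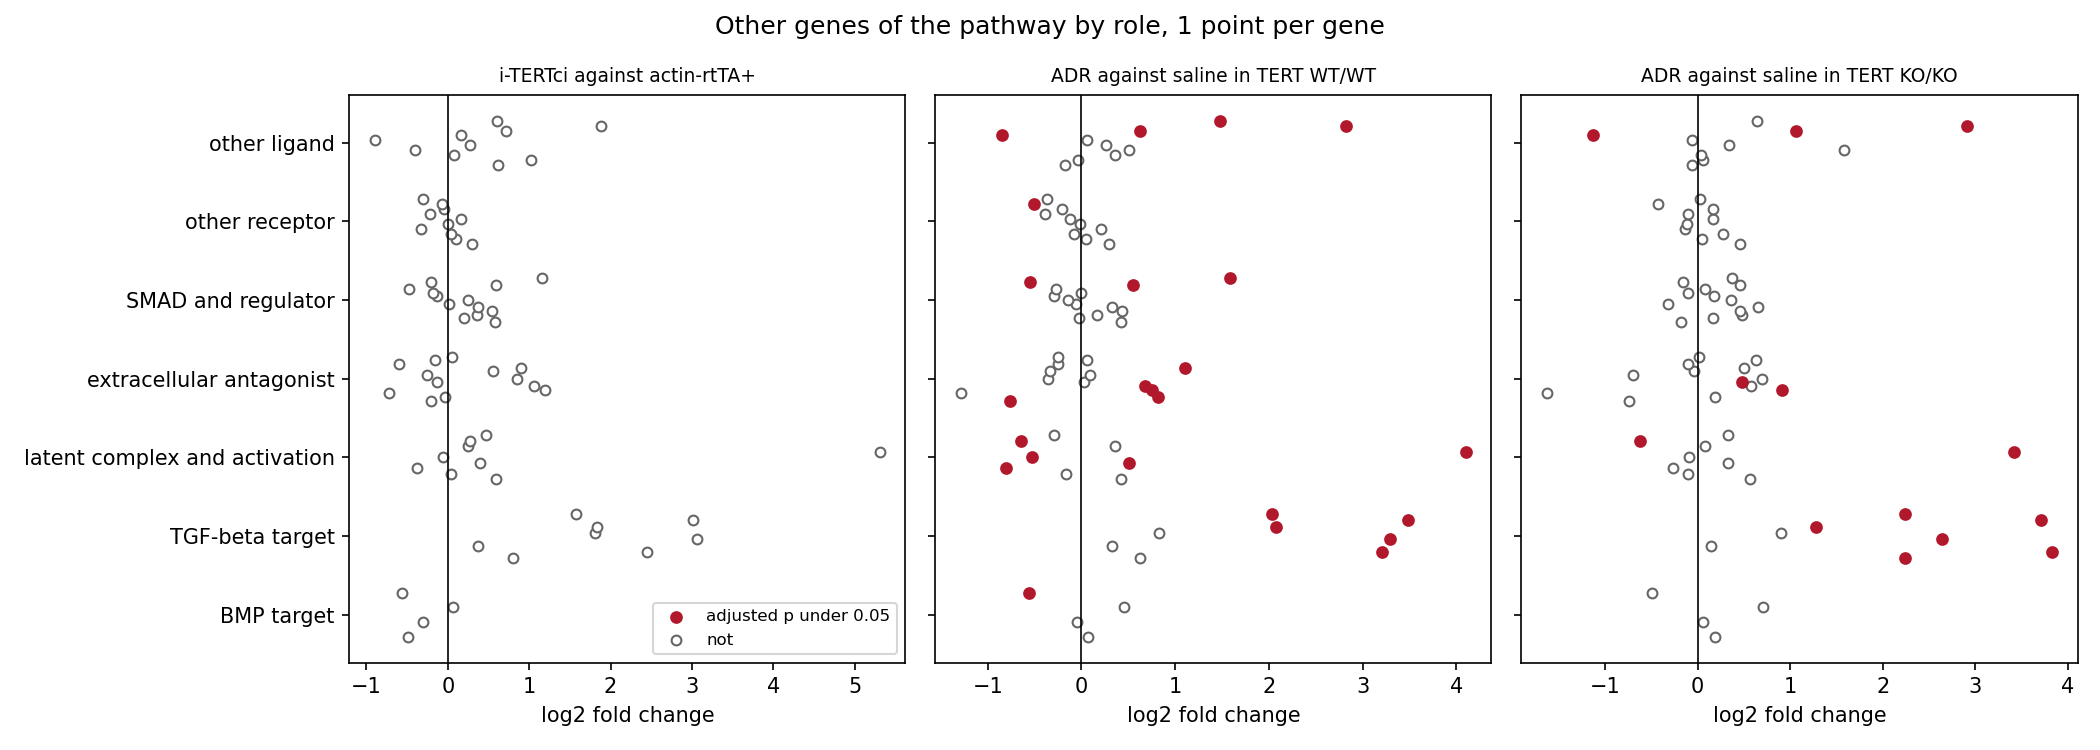
Log2 fold changes (horizontal axes, edgeR) of the 67 other pathway genes tested, by role, 1 point per gene, in i-TERTci against actin-rtTA+ mice and after ADR against saline in each genotype, with filled points where the adjusted p was under 0.05. The 8 TGF-beta targets all lie right of 0, with medians of 1.82, 2.05 and 2.24, while the other roles lie on both sides.

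Over the 12 libraries of the injury experiment, the genes whose log2 TMM CPM followed each of the 10 most closely were found among 14301 genes whose mean reached 1 CPM. For Tgfb1 they were Cd44 (Pearson r = 0.990), Ctxn1 (0.990) and Cd276 (0.990), for Inhba Ssc5d (0.970), Map3k8 (0.966) and Wdr62 (0.965), and for Inhbb Mdga1 (0.987), Gm16685 (0.984) and Fblim1 (0.981). Bmp7 was followed by Gpd1 (0.992), Olfm3 (0.984) and Scrn3 (0.982), Tgfbr1 by Stim2 (0.983), Cspg4 (0.980) and Npc1 (0.980), and Tgfbr2 by Pid1 (0.960), Hlcs (0.949) and Arsa (0.948). The closest were weaker for Grem1 (Lrfn1 0.912, Tpst2 0.902, Defb42 0.894), Tgfb3 (L3mbtl3 0.858, Lix1 0.857, Kcnt2 0.855) and Tgfb2 (Gabpb1 0.809, Igf1 0.806, Olfr558 0.776), and Smad7 had Cldnd1 (0.942), Tmem170b (0.931) and Ctnnb1 (0.930). All points share the 4 groups and their libraries, so these values mostly describe the difference between ADR and saline mice and carry no test.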

How the data were processed

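The authors deposited 1 table of raw counts per gene for 20 whole-kidney libraries, made from paired-end reads that were checked with FastQC, trimmed with Trimmomatic and aligned with STAR to mm10. The counting tool, the annotation and the strand setting are not given in the sources used here. Identifiers were matched to GENCODE M21 (241 of 55471 unmatched). No per-sample column was left unused (0).

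Counts were tested with edgeR 4.0.16 (R 4.3.3; filterByExpr, TMM factors, robust quasi-likelihood F test, Benjamini-Hochberg adjustment over all genes tested, threshold 0.05). The i-TERTci comparison was fitted on its 7 libraries, ADR and genotype comparisons on 12, and the comparison between experiments on 19. TMM CPM come from the 19 libraries. Replicate 2 of TERT KO/KO ADR, a liver-like library, entered no main test. The edgeR fit was run on simulated counts with known changes, for ADR against saline in TERT WT/WT mice only.

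Alternatives were median-ratio factors, no filter, a mean of at least 1 CPM, DESeq2 1.42.0, a replicate block, TERT KO/KO ADR replicate 2 included, only the 2 compared groups, 1 fit of all 19 libraries, and each library left out. Same-numbered libraries correlated from -0.54 to 0.50 in their deviations from group means, over 0.1 in 9 of 18 pairs. Deviations from means of so few libraries depend on each other, so this check cannot decide whether the numbers pair mice. The main tests took the mice as unpaired. All 10 genes were named, with up to 4 called pathway genes of smallest p in each direction and the 3 genes most like each of the 10. One gene that this rule names is not reported here. The genes and lists were chosen with earlier results of these data known.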

Additional observations from a re-analysis of the deposited data

Results flagged for a closer look

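Among actin-rtTA+ libraries, Tgfbr1 in replicate 1 lay far from the other 3, at 48.8 TMM CPM, against 33.6 to 36.0 TMM CPM. It was the 1 such value in 20 groups of 4 libraries, where chance gives about 1 in 20. The log2 fold change of Tgfb2 was 1.30 in i-TERTci mice, with every i-TERTci library above every control, whereas every ADR library of TERT KO/KO mice lay below every saline library (-0.59). The difference between these 2 effects was not tested in 1 model. The nearest test, against the effect of ADR in TERT WT/WT mice, gave 1.64 ± 0.26 SE (edgeR adjusted p = 0.0839).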

How the results depend on the processing

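With 2 to 4 mice a group, counts of calls moved more than directions did. Of 1270 values recomputed for 70 fold changes, 1142 kept their direction and side of the threshold, 60 turned direction (0 of them called), 40 became called and 28 lost the call, and the cause was not tested. In the order i-TERTci, ADR in wild-type mice, ADR in knockout mice, genotype in saline, genotype after ADR, interaction and i-TERTci against ADR, the main fits called 1, 5164, 1001, 1, 14, 0 and 1 of all genes. In the i-TERTci comparison 0 genes were called with median-ratio factors, 23 with no filter, 0 at a mean of 1 CPM, 1934 by DESeq2 and 2166 with 19 libraries, and of the 10 genes 1 (no filter), 5 (DESeq2) and 6 (19 libraries) in place of 0. With TERT KO/KO ADR replicate 2, 894 genes and 2 of the 10 were called for ADR in TERT WT/WT mice, 295 and 0 for the same drug in knockout mice, with 0 in saline, 0 after ADR and 0 in i-TERTci against ADR. By DESeq2, 2196 genes and 3 of the 10 were called in TERT KO/KO, 22 in saline, 138 between genotypes after ADR, 138 in the interaction, and 60 and 2 of the 10 in i-TERTci against ADR. With no filter, 6 were called in saline, 41 after ADR, 23 in the interaction, and 4 and 1 of the 10 in i-TERTci against ADR, and at a mean of 1 CPM 0 in saline. With no filter Tgfb1 was called in TERT KO/KO mice after ADR in place of Inhbb. With only the compared groups, 1710 and 4 of the 10 were called in TERT KO/KO, 2 in saline and 0 after ADR. The replicate block gave 1 gene after ADR, 0 in i-TERTci against ADR, and 2 of the 10 in TERT KO/KO, where Tgfb1 was called (0.80, edgeR adjusted p = 0.0483), and it called Tgfb2 lower in TERT WT/WT mice (-0.50, 0.0459). It changed no other call of the 10. Reversed fold changes were those of Smad7 in i-TERTci (-0.015 with median-ratio factors, -0.026 with no filter, -0.0095 at 1 CPM, -0.015 by DESeq2 and -0.0084 with 19 libraries), Tgfbr1 under the block (0.037 in saline, 0.013 after ADR, -0.023 in the interaction) and at 1 CPM (-0.014 in the interaction), Tgfb2 between genotypes after ADR (-0.036 under the block), and, with TERT KO/KO ADR replicate 2, Tgfb2 (-0.52), Inhba (3.09), Bmp7 (-0.32) and Tgfbr2 (0.16) after ADR and Inhba (2.55), Bmp7 (-0.047), Tgfbr1 (-0.090) and Tgfbr2 (0.25) in the interaction. Leaving out 1 library gave 0 to 4325, 1708 to 7810, 177 to 3393, 0 to 2, 0 to 782, 0 to 325 and 0 to 35 genes called in the 7 comparisons, and 0 to 7, 3 to 7, 0 to 3, 0 to 0, 0 to 0, 0 to 1 and 0 to 2 of the 10. Some of these fits leave 1 library in the TERT KO/KO ADR group. Leaving out 1 library turned Smad7 in i-TERTci (-0.091 to 0.055). In TERT KO/KO it turned Tgfb3 (-0.17 to 0.065), Tgfbr2 (-0.23 to 0.23) and Smad7 (-0.24 to 0.19), and in saline Inhbb (-0.27 to 0.43) and Tgfbr1 (-0.10 to 0.036). Between genotypes after ADR it turned Tgfb1 (-0.39 to 0.0077), Tgfb2 (-0.19 to 0.20), Tgfb3 (-0.43 to 0.12), Tgfbr1 (-0.25 to 0.20) and Smad7 (-0.28 to 0.16). In the interaction it turned Tgfbr1 (-0.21 to 0.24), Tgfbr2 (-0.41 to 0.045), Grem1 (-0.42 to 0.18) and Smad7 (-0.013 to 0.42), and in i-TERTci against ADR Tgfb1 (-0.17 to 0.53), Inhba (-0.047 to 0.55), Tgfbr1 (-0.28 to 0.14) and Grem1 (-0.0084 to 1.68). Grem1 had 8 to 339 counts and Inhba 18 to 274 counts in a kidney library, and such counts limit the precision of their values.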
